A study of Mus musculus with 20 samples.

Results

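Lyz1 and Lyz2, the pair of mouse lysozyme genes that lie side by side on chromosome 10, were followed through 20 RNA sequencing libraries of whole mouse spleen. They are 2 of the 54532 genes in the deposited count table, found by gene name, and both were among the 18362 genes that passed the filter on low counts. The diet comparison of these same libraries had been seen before, and Lyz1 had its smallest p of all tested genes. In that comparison no gene passed at an adjusted p under 0.05 by edgeR, while DESeq2 and limma-voom called genes. Because the pair was selected on the p of that diet comparison, the diet differences of both genes are given as a description, with no test. All animals were 4 weeks old and no genetic change is named in the labels. Spleens came from control animals (11 libraries) and from animals bred on a gluten-free diet (9 libraries). Library IDs come in 2 forms. Those without a letter (plain IDs) are 1 to 8 in 8 control libraries and 7 to 10 in 4 gluten-free libraries. Those with the letter S are S1, S2 and S6 in 3 control libraries and S1, S3, S5, S6 and S8 in 5 gluten-free libraries. The labels explain neither the letter nor whether each ID was its own animal, so p-values here reflect how these libraries scatter, which may be in part technical.

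Lysozyme is an enzyme of innate immunity that cuts the sugar backbone of peptidoglycan in bacterial cell walls. Mice carry a duplicated gene: Lyz2 encodes the form made by macrophages, monocytes and neutrophils, and Lyz1 encodes the form best known from the Paneth cells at the base of the intestinal crypts. In the spleen, lysozyme is known mainly as a product of red pulp macrophages, monocytes and neutrophils, and its products of digestion are sensed by peptidoglycan receptors of the same cells.

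In the GRCm38 build both genes lie on the minus strand of chromosome 10, Lyz1 (ENSMUSG00000069515) from 117287797 to 117292868 and Lyz2 (ENSMUSG00000069516) from 117277331 to 117282321, and each has 4 exons. Their transcripts (1263 and 1316 bases, GENCODE M21) share 1211 of 1262 aligned bases (95.96%). The coding sequences differ at 22 of 447 bases and the encoded proteins, translated from the transcripts, at 12 of 148 residues (91.9% identical). Because the genes can be told apart only at such differences, the second exon, which is coding, is shown for both genes, with the 6 bases that differ in capitals (Lyz1, chr10:117291029-117291193; Lyz2, chr10:117280641-117280805; minus strand, GRCm38).
Lyz1 exon 2: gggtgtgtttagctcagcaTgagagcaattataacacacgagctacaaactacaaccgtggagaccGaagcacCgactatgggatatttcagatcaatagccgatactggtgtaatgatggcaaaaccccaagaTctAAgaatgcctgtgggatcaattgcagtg
Lyz2 exon 2: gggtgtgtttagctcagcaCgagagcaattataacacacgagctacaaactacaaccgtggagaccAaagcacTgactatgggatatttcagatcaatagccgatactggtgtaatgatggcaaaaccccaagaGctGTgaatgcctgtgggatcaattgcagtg

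The longest stretch that the transcripts share without a difference is 118 bases, within the coding sequence. Of the windows of 50 bases in Lyz1, 16.1% are found unchanged in Lyz2, against 6.22% of windows of 75 bases, 2.06% of windows of 100 bases and 0% of windows of 150 bases. How the counting treated reads that match both genes is not given in the sources used here, so the level of Lyz1, the far lower gene, is the less certain of the pair.

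The promoters are shown because both genes were higher in the same libraries of the plain IDs. The windows run from 250 to 51 bases before the RefSeq start site (Lyz1, chr10:117292919-117293118; Lyz2, chr10:117282323-117282522; minus strand, GRCm38.p6) and are identical at 150 of 198 aligned bases (75.8%). Capitals mark AGGAAGT, a core bound by ETS family factors such as Spi1, found here as its reverse complement ACTTCCT.
Lyz1 promoter: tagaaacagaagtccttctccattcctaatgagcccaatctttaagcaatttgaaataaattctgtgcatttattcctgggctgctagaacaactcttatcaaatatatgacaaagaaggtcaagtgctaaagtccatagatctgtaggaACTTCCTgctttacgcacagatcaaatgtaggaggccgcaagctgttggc
Lyz2 promoter: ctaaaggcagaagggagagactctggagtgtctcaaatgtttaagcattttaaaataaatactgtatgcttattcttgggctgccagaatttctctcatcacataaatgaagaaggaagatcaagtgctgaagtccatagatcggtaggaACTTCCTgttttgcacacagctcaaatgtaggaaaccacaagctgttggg

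The match starts 100 bases before the RefSeq start site in both genes. In GENCODE M21 the Lyz2 transcript starts at 117282321, next to the near end of its window. The distance for Lyz2 therefore depends on the annotation. On either strand AGGAAGT occurs in 5.66% of the 32851 RefSeq promoter windows of this length. TTNNGCAA, a pattern of C/EBP sites, was found in Lyz1 alone, 209 bases before the start (8.11% of promoters), and TATAAA in neither window (9.14% of promoters). The windows end 51 bases before the RefSeq start, so TATAAA nearer to that start was not searched for. A match describes the letters of the window and is not evidence of binding.

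The libraries held 13626021 to 24268237 counts. Cell types other than myeloid cells varied widely between libraries. The summed level of 14 erythroid genes ran from 53237 to 195296 CPM (the usual library-size unit, here TMM-scaled), and that of 10 pancreatic acinar genes from 6.19 to 10427 CPM, with gluten-free S1 (10427 CPM) and control 4 (912 CPM) above all others. In pairs of libraries of the same group the chi-square of the counts was 5.72 to 95.6 per degree of freedom, so no library repeated another of its group. Pairs across groups were not compared this way.

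Lyz2 was one of the most abundant transcripts of these spleens and Lyz1 a minor one. Per kilobase of transcript, Lyz2 averaged 765 ± 271 CPM (SD, n = 20 libraries), rank 47 of 18362 genes, and Lyz1 averaged 12.1 ± 5.22 CPM (SD, n = 20), rank 4197. Of 62 myeloid marker genes, S100a9 (a subunit of calprotectin, 1352 CPM per kilobase) was the only one above Lyz2 on this scale, and 26 were above Lyz1. The remaining members of the lysozyme family, which include sperm and milk proteins, were nearly silent. Over all 20 libraries Lyzl4 had 36 counts, Lalba 32, Spaca5 20, Lyg2 2 and Lyzl6 1. Lyg1, Lyzl1 and Spaca3 had 0 counts, and none of these genes passed the filter. Markers of Paneth cells, the cells for which Lyz1 is best known, were close to absent: 8 of 11 listed genes had 0 counts in all libraries, among them the defensin genes Defa17, Defa21, Defa22, Defa24, Defa26 and Defa30, with Ang4 and Reg3g, and the summed level of the list was at most 1.29 CPM.

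Lyz1 was low and even in the control libraries with plain IDs and higher in every gluten-free library than in any of them. Among those 8 control libraries Lyz1 was lowest at 7.25 CPM (control 7), had a median of 9.82 CPM and was highest at 11.6 CPM (control 8). The gluten-free libraries with plain IDs had 22.9 CPM (ID 7), 24.6 CPM (ID 8), 20.04 CPM (ID 9) and 25.0 CPM (ID 10), so the diets did not overlap within the plain IDs. Of all tested genes 39.6% passed at an adjusted p under 0.05 in that comparison, 17.5% as higher (edgeR). The share of genes without overlap was not computed, so whether the lack of overlap sets Lyz1 apart is not known. Among the S IDs the 3 control libraries had 9.79 CPM (S1), 7.82 CPM (S2) and 19.4 CPM (S6). The 5 gluten-free libraries with S IDs had 14.7 CPM (S1), 20.3 CPM (S3), 21.9 CPM (S5), 26.7 CPM (S6) and 12.8 CPM (S8). Control S6, alone of the 3 control libraries with S IDs, lay within the gluten-free range, so the diets overlapped there. The underlying Lyz1 counts were 90 (control 7) to 614 (gluten-free S6).

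Lyz2 followed the diet in the plain IDs, and among the S IDs its levels overlapped. In control libraries with plain IDs it ran from 563 CPM (control 4) through a median of 754 CPM to 1006 CPM (control 8). The gluten-free libraries with plain IDs had 1477 CPM (ID 7), 1468 CPM (ID 8), 1499 CPM (ID 9) and 1991 CPM (ID 10), all above every other library of the study. Control libraries with S IDs had 827 CPM (S1), 821 CPM (S2) and 956 CPM (S6). Gluten-free libraries with S IDs had 1060 CPM (S1), 1063 CPM (S3), 1004 CPM (S5), 1147 CPM (S6) and 703 CPM (S8). Gluten-free S8, the lowest of its group, was below all 3 control libraries with S IDs, and the other four were above them. The Lyz2 counts were 8279 (control 4) to 39495 (gluten-free 9).

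**Figure D1:**
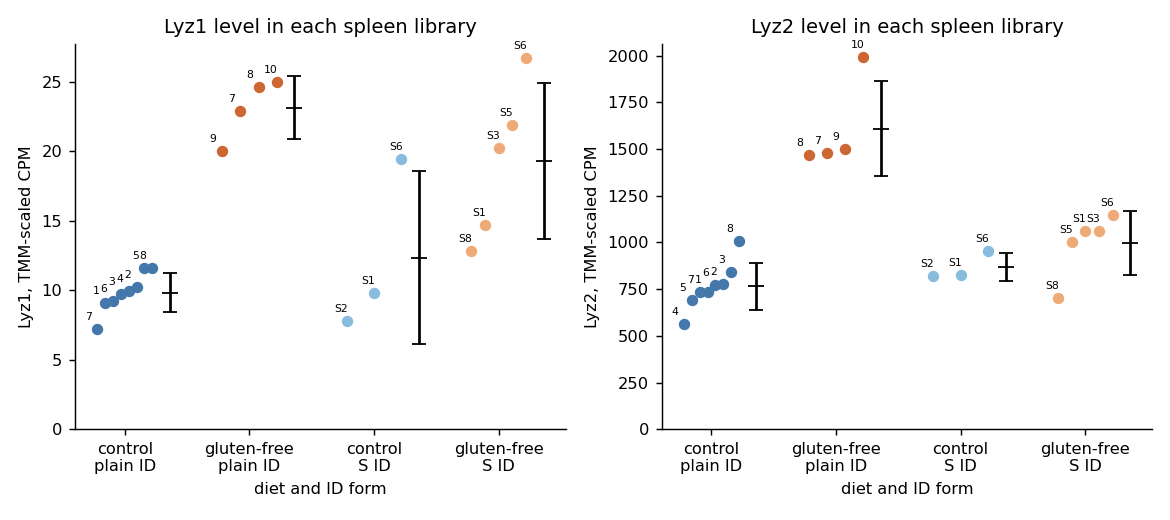
TMM-scaled CPM of Lyz1 (left) and Lyz2 (right) in each of the 20 libraries by diet and ID form; points are libraries labelled with their ID, and the black bar beside each group is its mean ± SD. For Lyz2 the 4 gluten-free libraries with plain IDs, 1468 to 1991 CPM, lie above all others, whereas for Lyz1 they overlap with the gluten-free libraries with S IDs, 12.8 to 26.7 CPM.

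The groups fell in the same order for both genes. From the highest to the lowest these were gluten-free with plain IDs, gluten-free with S IDs, control with S IDs and control with plain IDs. In that order Lyz1 averaged 23.2 ± 2.27 (SD, n = 4), 19.3 ± 5.60 (SD, n = 5), 12.3 ± 6.22 (SD, n = 3) and 9.83 ± 1.42 CPM (SD, n = 8). Lyz2 averaged 1609 ± 255, 995 ± 171, 868 ± 76.4 and 765 ± 127 CPM (SD) in the same groups. Of the neighbours in this order, the ranges of all 3 pairs overlapped for Lyz1, and for Lyz2 the top pair alone was free of overlap. On the log2 scale the difference of gluten-free from control in the fit over both ID forms was 0.99 ± 0.16 (SE) for Lyz1 and 0.71 ± 0.14 (SE) for Lyz2. Within the plain IDs it was 1.23 ± 0.12 and 1.07 ± 0.13 (SE). Within the S IDs it was 0.64 ± 0.32 for Lyz1 and 0.20 ± 0.17 (SE) for Lyz2. The Lyz1 value of the S IDs depends on single control libraries: it was 0.40 without control S2 and 1.13 without control S6.

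The S IDs were then compared with the plain IDs within each diet, a comparison that was not itself used to choose the genes. The same libraries entered the diet comparison that was used. The tests of ID form and of its interaction with diet are therefore not independent of that choice. Among gluten-free libraries Lyz2 was lower in the S IDs, with a log2 difference of -0.69 ± 0.15 (SE; adjusted p = 0.00641, edgeR). All 5 S libraries lay below all 4 plain ones, and an exact permutation test over the libraries gave p = 0.0159, two-sided, the smallest that 126 splits allow. In this comparison 31.5% of all tested genes passed, 12.1% as lower in the S IDs (edgeR). How many genes were free of overlap was not computed here either. Lyz1 differed by -0.26 ± 0.19 (SE; adjusted p = 0.306, edgeR), which did not pass the threshold of 0.05, and its ranges overlapped. Leaving out gluten-free S1, the library with the most acinar RNA, gave -0.72 for Lyz2 (adjusted p = 0.0115, edgeR) and -0.18 for Lyz1 (adjusted p = 0.491, edgeR). Among control libraries neither gene passed the test: the difference was 0.33 ± 0.23 (SE; adjusted p = 0.534, edgeR) for Lyz1 and 0.18 ± 0.15 (SE; adjusted p = 0.618, edgeR) for Lyz2. The control value of Lyz1 changed sign without control S6, to -0.16 (adjusted p = 0.685, edgeR).

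The diet difference of Lyz2 itself differed between the ID forms. The difference in the S IDs minus that in the plain IDs was -0.88 ± 0.22 (SE) on the log2 scale (adjusted p = 0.00756, edgeR, interaction of diet and ID form). In this interaction 24.8% of all tested genes passed, 9.37% as lower (edgeR). For Lyz1 the same term was -0.59 ± 0.31 (SE; adjusted p = 0.174, edgeR), below the threshold for a call, and it was -0.10 without control S6 (adjusted p = 0.846, edgeR). The Lyz2 value was -0.82 without control 4 and -0.90 without gluten-free S1, with adjusted p = 0.00937 and 0.00741 (edgeR). A fit with a replicate block over the 8 libraries whose IDs occur in both diets gave -0.47 for Lyz2 (adjusted p = 0.849, edgeR), which ends the call, though the deviations of same-numbered libraries did not go together in all pairs and fewer libraries enter that fit.

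These differences moved with the erythroid genes, which code for haemoglobin and other products of red cell precursors. The summed erythroid level was 53237 to 95681 CPM in the gluten-free libraries with plain IDs, against 100718 to 170946 CPM in the gluten-free libraries with S IDs and 79639 to 177897 CPM in the control libraries with plain IDs. With the erythroid mean as a covariate, the Lyz2 difference between ID forms in gluten-free libraries was -0.25 (adjusted p = 0.749, edgeR) and its interaction -0.48 (adjusted p = 0.164, edgeR). In gluten-free libraries the summed erythroid level did not overlap between ID forms, so the covariate fit cannot separate it from ID form. The SE of that Lyz2 difference was 0.25, against 0.15 without the covariate. In whole tissue, fewer cells of a type and less RNA per cell cannot be told apart.

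Within a library the balance of the pair does not depend on library size. Lyz1 made up 0.944% of all lysozyme counts in control S2 (123 of 13034 counts, exact 95% binomial interval 0.785% to 1.12%) and 2.28% in gluten-free S6 (614 of 26986 counts, 2.10% to 2.46%), the lowest and the highest library. Per kilobase, Lyz2 exceeded Lyz1 by 101 times in control S2 and by 41.2 times in gluten-free S6. The intervals cover counting error only, and since they do not overlap, the libraries differed in this share beyond counting error.

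**Figure D2:**
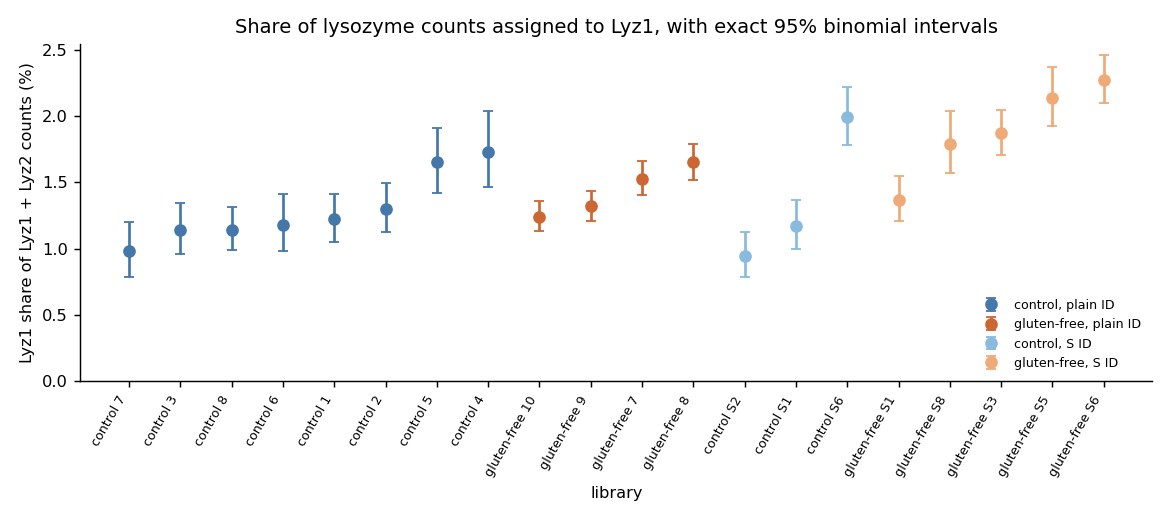
Share of the Lyz1 and Lyz2 counts of each library that was assigned to Lyz1, in percent, ordered by group and by value; bars are exact 95% binomial intervals, which cover counting error only. The gluten-free libraries with S IDs reach from 1.37% to 2.28%, and control S6, at 1.99%, stands above the other control libraries with S IDs.

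The Lyz1 share averaged 1.29% ± 0.263 (SD, n = 8) in control libraries with plain IDs, 1.43% ± 0.188 (SD, n = 4) in gluten-free libraries with plain IDs, 1.37% ± 0.552 (SD, n = 3) in control libraries with S IDs and 1.89% ± 0.350 (SD, n = 5) in gluten-free libraries with S IDs. Between ID forms the mean log2 ratio of Lyz1 to Lyz2 counts differed by 0.39 in gluten-free libraries (exact permutation p = 0.0635, two-sided, 126 splits; 0.127 adjusted over the 2 comparisons) and by 0.03 in control libraries (exact permutation p = 0.958, 165 splits). Neither passed. Without gluten-free S1 the gluten-free difference was 0.50 (exact permutation p = 0.0286). Between diets, as a description, the log2 ratio was higher in gluten-free than in control libraries by 0.17 in the plain IDs and by 0.52 in the S IDs.

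The relation between Lyz1 and Lyz2 across libraries did not pass after adjustment. After the mean of each of the 4 groups was subtracted from log2 CPM, Pearson's r between them was 0.49 over 20 libraries (permutation p = 0.0202 and 0.0571 adjusted over the 17 relations computed; Spearman's rho 0.47, permutation p = 0.0370 and 0.0900 adjusted). It was 0.50 without control S2 and control S6, the libraries farthest from the median of Lyz1. Among plain IDs alone it was 0.28, and among S IDs 0.70. The value rests in part on gluten-free S8, without which it was 0.33 (permutation p = 0.0910), and it was 0.11 once the erythroid mean had been regressed out (permutation p = 0.676).

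Within groups, Lyz1 went with lymphocyte genes and against erythroid ones. Its r with the mean of 8 B and T cell genes was 0.88 (rho 0.84; adjusted permutation p = 5.1e-04 and 0.00765), and 0.82 without control S2 and control S6. With the erythroid mean r was -0.76 (rho -0.71; adjusted permutation p = 0.0123 and 0.0286) and with the red pulp and marginal zone macrophage mean -0.70 (rho -0.70; adjusted permutation p = 0.0317 and 0.0295), or -0.67 and -0.64 without those libraries. Among libraries with plain IDs the B and T cell relation was 0.61 and the erythroid one -0.50, against 0.98 and -0.90 among those with S IDs. The macrophage relation was -0.39 among libraries with plain IDs against -0.83 among those with S IDs. With library totals in place of TMM the macrophage relation was -0.50 (permutation p = 0.0633, unadjusted), which did not pass. With the dendritic cell mean r was 0.59 (rho 0.39; adjusted permutation p = 0.108 and 0.285), 0.36 without control S2 and control S6, 0.01 among plain IDs and 0.83 among S IDs. With the monocyte mean r was -0.02 (rho 0.06; adjusted permutation p = 0.9501 and 0.801) and with the 3 neutrophil lists -0.38 to -0.27, and neither these nor the dendritic cell relation passed the threshold. All of these means share the library and its scaling with Lyz1.

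No relation of Lyz2 passed by both measures. The one with monocyte genes passed by rank alone and the one with lymphocyte genes by Pearson's r alone. Its r with the monocyte mean was 0.55 (rho 0.65; adjusted permutation p = 0.0737 and 0.0286), and 0.57 without control 4 and gluten-free S8, the libraries farthest from its median. Without control 8 it was 0.45 (permutation p = 0.118, unadjusted), and it was 0.71 among plain IDs and 0.33 among S IDs. With the B and T cell mean r was 0.62 (rho 0.47; adjusted permutation p = 0.0229 and 0.0900), and 0.52 without control 4 and gluten-free S8. The latter relation was 0.33 once the erythroid mean had been regressed out (permutation p = 0.163, unadjusted), which ends the call. With the erythroid mean itself r was -0.56 (rho -0.52; adjusted permutation p = 0.0571 and 0.0900), with the dendritic cell mean 0.50 (rho 0.34; adjusted permutation p = 0.0716 and 0.274) and with the macrophage mean -0.17 (rho -0.23; adjusted permutation p = 0.616 and 0.461). With the 3 neutrophil lists r was 0.05 to 0.31, and none of these passed the threshold. Regressing out the erythroid mean gave 0.55 for Lyz2 with mature neutrophil genes (permutation p = 0.0156, unadjusted). It gave 0.46 with secondary and tertiary granule genes (permutation p = 0.0448, unadjusted). The azurophilic relation passed under no setting. Whether the correlations of Lyz1 and of Lyz2 differ from each other was not tested.

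**Figure D3:**
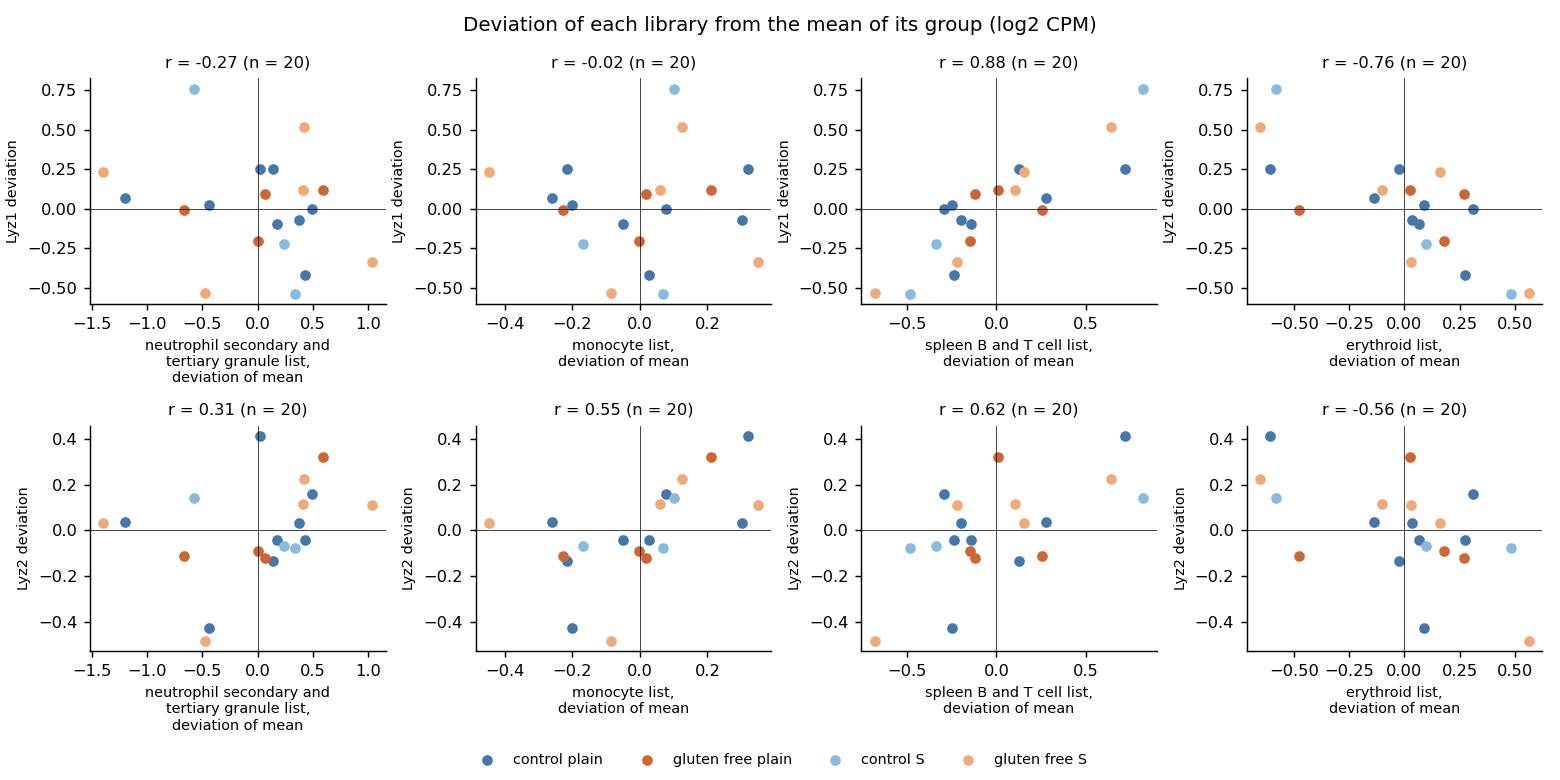
Deviation of Lyz1 (upper row) and Lyz2 (lower row) from the mean of the library's group, in log2 CPM, against the same deviation of the mean of 4 marker lists; each point is a library, coloured by group. Lyz1 rises with the B and T cell mean (r = 0.88) and falls with the erythroid mean (r = -0.76), and for Lyz2 with the monocyte mean r was 0.55, which did not pass after adjustment (adjusted permutation p = 0.0737).

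By the same measure the 5 protein-coding genes most like Lyz1 among 13095 with a mean of at least 1 CPM were S1pr4 (a lymphocyte sphingosine phosphate receptor, r = 0.94, rho 0.92), Cd79a (a signalling chain of the B cell receptor, r = 0.93, rho 0.92), Sh2b2 (a signalling adaptor, r = 0.93, rho 0.87), Gimap1 (a lymphocyte GTPase, r = 0.92, rho 0.91) and Ccm2 (a scaffold protein, r = 0.92, rho 0.94). Among those most like Lyz2 were Mapkapk3 (a kinase, r = 0.88, rho 0.79), Plac8 (r = 0.87, rho 0.73), Sgpp2 (a sphingosine phosphate phosphatase, r = 0.84, rho 0.81) and Tbc1d8 (r = 0.82, rho 0.65). Each was ranked over the 20 libraries with the group means removed. Lyz2 held rank 2736 among the genes like Lyz1, and Lyz1 held rank 1971 among those like Lyz2.

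Neutrophil granule genes, which share the granules with lysozyme, had larger differences than the lysozyme genes in the plain IDs, though the gap itself was not tested. The background was high there: 39.6% of the 18362 tested genes passed at an adjusted p under 0.05 (edgeR), 17.5% higher and 22.1% lower in gluten-free libraries, and the median log2 difference of all genes was 0.03. Of the 62 myeloid markers 34 rose and 1 fell (median 0.50), whereas a fit that held the erythroid mean constant called 21 of them and 706 of all genes. All 6 azurophilic granule genes rose (median 1.80), among them Mpo (myeloperoxidase, 1.97 ± 0.29, SE), Prtn3 and Elane (serine proteases, 1.83 ± 0.26 and 1.77 ± 0.28) and Ctsg (cathepsin G, 1.73 ± 0.30), with Prss57 at 2.03 and Ms4a3 at 1.46 as the largest and smallest. Mpo ran from 24.1 to 113 CPM in control and from 157 to 411 CPM in gluten-free libraries with plain IDs. All 9 secondary and tertiary granule genes rose (median 1.67), from Ltf (lactoferrin, 1.78 ± 0.25) to Ltb4r1 (a leukotriene receptor, 1.42 ± 0.26), with Ngp at 1.60, Camp (cathelicidin) at 1.58 and Chil3 (a chitinase-like protein) at 1.67. Of 10 mature neutrophil genes 7 rose (median 1.11), with S100a9 at 1.51, S100a8 at 1.64, Csf3r (the receptor of the growth factor G-CSF) at 0.68, Retnlg at 1.41 and Ly6g at 1.67, while Il1b had -0.05 (adjusted p = 0.799, edgeR).

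By their medians the monocyte and dendritic cell lists differed by less than the lysozyme genes, though the monocyte gene F13a1 differed by more than both, and macrophage genes did not pass the test. Of 12 monocyte genes 7 rose in the plain IDs (median 0.48): Fn1 (fibronectin) by 0.69, F13a1 (the factor XIII A chain) by 1.44 and Ms4a4c by 0.51, whereas Csf1r had 0.29 (adjusted p = 0.0729, edgeR) and Fcgr4 -0.05 (adjusted p = 0.903, edgeR). Of 9 conventional dendritic cell genes 5 rose and 1 fell (median 0.32), with Cst3 at 0.32, Itgax at 0.36, Flt3 at 0.58, Cd209a at 0.70 and Zbtb46 at -0.43, and Batf3 at 0.15 (adjusted p = 0.466, edgeR). None of the 16 red pulp and marginal zone macrophage genes passed by edgeR (0 of 16, median 0.03; 1 at an unadjusted p under 0.05; 0 by DESeq2; 3 without control 2 and 1 without control 5, control 8 or gluten-free 8), with Hmox1 (haem oxygenase) at -0.24, Slc40a1 (the iron exporter ferroportin) at -0.32, Vcam1 at -0.0046 and C1qa at 0.09. In control libraries with plain IDs Vcam1 had a mean of 248 ± 45.6 CPM (SD, n = 8), and in gluten-free ones 247 ± 24.3 CPM (SD, n = 4). The erythroid list fell in 14 of 14 genes (median -1.37), and 4 of 8 B and T cell genes rose (median 0.67).

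Peptidoglycan receptors and myeloid transcription factors of the plain IDs rose in part. Of 8 tested genes of peptidoglycan recognition 5 rose (median 0.45). Pglyrp1, a peptidoglycan-binding protein of neutrophil granules, had 1.34 ± 0.20 (SE), Nod1, a cytosolic receptor, 0.27, Slc15a3, a peptide transporter, 0.43, and Pglyrp2, an amidase, 0.70, whereas Ripk2, the kinase downstream of the NOD receptors, had 0.11 (adjusted p = 0.561, edgeR). Pglyrp3, Pglyrp4 and Slc46a2 had 0, 8 and 5 counts over all libraries and were not tested. Of 9 transcription factors 7 rose (median 0.64), led by Cebpe, a factor of late granulocyte development, at 1.54 ± 0.23 (SE). Spi1, the ETS factor of myeloid development, had 0.64 ± 0.11 and Irf8 0.40, whereas Runx1 had 0.15 (adjusted p = 0.134, edgeR) and Cebpb 0.26 (adjusted p = 0.194, edgeR).

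Among the S IDs no gene passed in the diet comparison (0% of 18362 tested, edgeR; 986 genes had an unadjusted p under 0.05, and DESeq2 called 4). The 62 myeloid markers had a median of -0.40, against 0.02 for all genes, while Lyz1 had 0.64 ± 0.32 and Lyz2 0.20 ± 0.17 (SE). The pair was chosen on a diet comparison that included these libraries, which favoured its sign in advance. The contrast is a description only. The secondary and tertiary granule genes had a median of -0.51, the azurophilic genes -0.16 and the monocyte genes -0.34. Ltf had -0.51 ± 0.45 (SE, adjusted p = 0.947) and Mpo -0.29 ± 0.46 (SE, adjusted p = 0.976, edgeR).

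Between ID forms of the gluten-free libraries the myeloid markers were lower in the S IDs, as Lyz2 was. In this comparison 31.5% of all tested genes passed (19.4% higher and 12.1% lower, edgeR; median -0.06), and of the 62 markers 33 were called, all lower (median -0.80). All 9 secondary and tertiary granule genes fell (median -1.50), from Mmp8 (neutrophil collagenase, -2.11 ± 0.42, SE) to Ngp (-1.26 ± 0.43), with Ltf at -1.50, Camp at -1.36 and Chil3 at -1.46. Of 10 mature neutrophil genes 8 fell, Retnlg by 1.85, S100a8 by 1.74, Csf3r by 1.36 and S100a9 by 1.29, and Trem1 had -0.38 (adjusted p = 0.375, edgeR). Of the 6 azurophilic genes Prss57 alone passed, at -1.35, while Mpo had -1.13 (adjusted p = 0.0568, edgeR), Prtn3 -0.96, Elane -1.0001, Ctsg -0.86 and Ms4a3 -0.60. The azurophilic count depends on single libraries: 0 of 6 were called without gluten-free 8 or gluten-free 10, 2 without gluten-free 7 and 4 without gluten-free S1, and 4 with library totals in place of TMM. Without gluten-free 10, whose summed granule and mature neutrophil levels were the highest of all libraries (4174 CPM of secondary and tertiary granule genes), 21 of the 62 markers were called, 5 of the mature neutrophil genes among them.

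Of the mononuclear lists, 7 of 12 monocyte genes fell between ID forms of the gluten-free libraries (Cd14, the lipopolysaccharide co-receptor, by 1.09, F13a1 by 0.80, Csf1r by 0.53 and Fn1 by 0.47, with Ms4a4c at -0.30, adjusted p = 0.353, and Cx3cr1 at -0.25, adjusted p = 0.151, edgeR). Of 9 dendritic cell genes 5 fell (Cd209a by 1.46, Flt3 by 0.69, Cst3 by 0.60 and Itgax by 0.51, with Zbtb46 at 0.24 and Clec9a at -0.21 not past the threshold). Of 16 macrophage genes 3 fell, with Cd209b at -1.21, and with Hmox1 at -0.26, Slc40a1 at -0.01, Vcam1 at -0.27 and C1qa at -0.19 not past the threshold. Without gluten-free S1 the macrophage count was 6, and it was 1 without gluten-free 8 or gluten-free 10, while the dendritic cell count was 3 without gluten-free 8, 9, S3 or S5. Of 9 transcription factors 7 fell, Cebpe by 1.23, Cebpb by 1.02, Spi1 by 0.96 and Irf8 by 0.57, and Runx1 had -0.18 (adjusted p = 0.147, edgeR). Of 8 peptidoglycan genes 5 fell, among them Pglyrp1 by 1.26 and Nod1 by 0.64, while Pglyrp2 had -0.57, Slc15a3 -0.29 and Ripk2 -0.23, not past the threshold. Erythroid genes rose in 14 of 14 (median 1.37) and 1 of 8 B and T cell genes fell (median -0.43). The part of the erythroid difference in these values was not tested beyond the covariate fit, in which 0 genes of the table passed (edgeR).

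In the interaction of diet and ID form 24.8% of all tested genes passed (15.4% higher and 9.37% lower, edgeR), and of the 62 markers 31 were lower and 1 higher (median -0.75, against -0.02 for all genes). All 6 azurophilic genes were lower (median -1.92), from Prss57 at -2.38 to Ms4a3 at -1.48, with Mpo at -2.26 ± 0.57 (SE). All 9 secondary and tertiary granule genes were lower (median -2.25), from Mmp8 at -2.35 to Ltb4r1 at -1.73, with Ltf at -2.29 ± 0.53 (SE). Of the mature neutrophil genes 7 of 10 were lower, Ly6g at -2.26 and S100a9 at -1.94, and Trem1 had -0.17 (adjusted p = 0.800, edgeR). Of the monocyte genes 6 of 12 were lower, F13a1 at -2.04, Fn1 at -0.61 and Csf1r at -0.61, and Cx3cr1 had -0.30 (adjusted p = 0.415, edgeR). Lyz2 (-0.88) thus lay between the monocyte median (-0.62) and the neutrophil medians. Of the dendritic cell genes 3 of 9 were lower and Zbtb46 was higher, at 0.45, and of the macrophage genes 0 of 16 passed by edgeR (2 at an unadjusted p under 0.05; 0 by DESeq2; median -0.42). Of the peptidoglycan genes 2 of 8 were lower, with Pglyrp1 at -1.59 and Ripk2 at -0.05 (adjusted p = 0.894, edgeR). Of the transcription factors 5 of 9 were lower, with Cebpe at -1.56 and Spi1 at -0.83, and Cebpd had -0.31 (adjusted p = 0.255, edgeR). The erythroid genes were higher in 10 of 14 (median 1.35). Several of these counts rest on single libraries: 3 azurophilic genes were called without gluten-free 10, control S1 or control S2, 4 mature neutrophil genes without control S2, 3 monocyte genes without gluten-free 10 and 0 dendritic cell genes without control S6 (1 without control S1 or gluten-free 9). Of the macrophage genes 1 was called without control 3 or control S6 and 2 without gluten-free S1. With the replicate block 0 of the 62 markers were called.

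**Figure D4:**
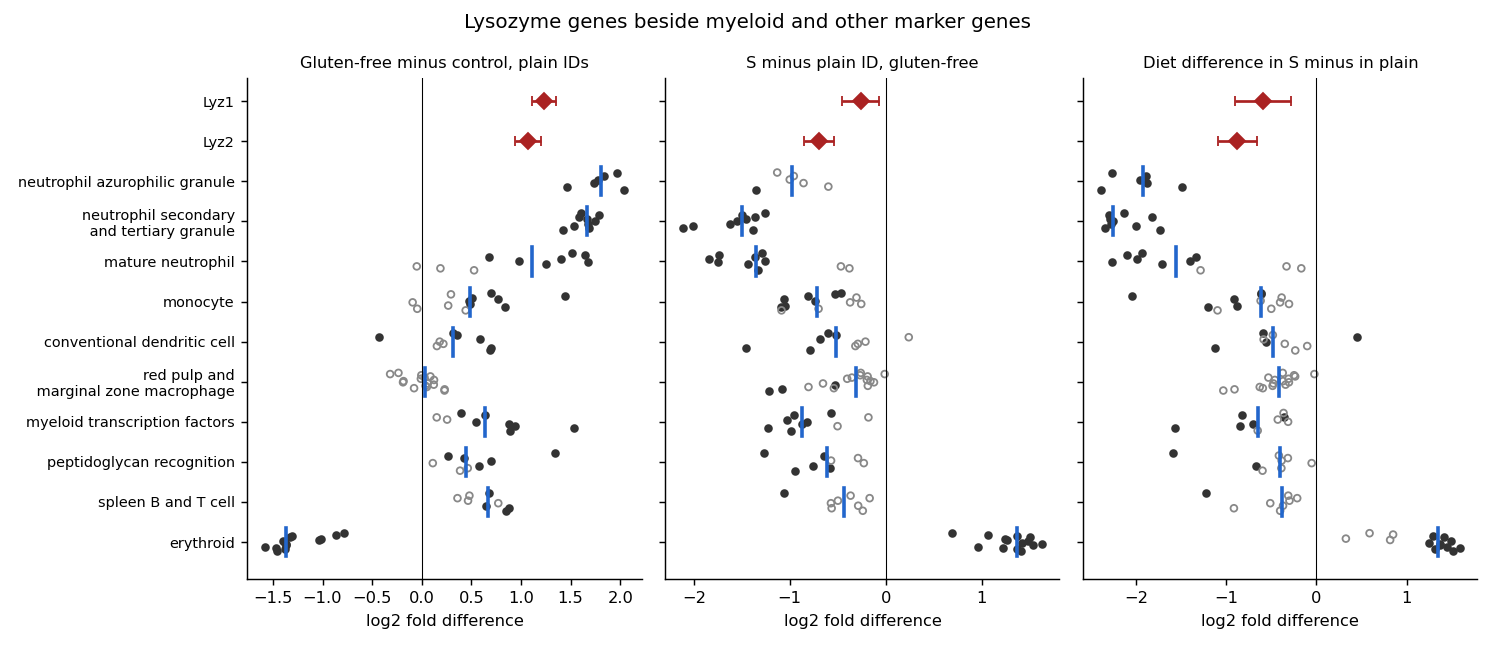
Log2 difference of Lyz1 and Lyz2 (red diamonds with SE) and of the genes of 10 marker lists (dots; filled where the adjusted p was under 0.05, blue line at the list's median) in the diet comparison of the plain IDs, the comparison of ID forms in gluten-free libraries and their interaction. In each panel Lyz2 lies between the medians of the neutrophil granule lists and that of the macrophage list, while single genes of these lists lie on either side of it (the macrophage gene Cd209b at -1.21 between ID forms, for example), and the erythroid median lies on the other side of 0.

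Among control libraries few genes were called between the ID forms. There 1.94% of tested genes passed (edgeR), and of the 62 markers F13a1 alone did, higher in the S IDs at 1.24 (adjusted p = 0.0243, edgeR). That background rests on single control libraries with S IDs: 0 genes passed without control S1 or without control S2, and 949 without control S6, with 9 markers among them. The azurophilic genes had a median of 0.99 with 0 of 6 called by edgeR (6 at an unadjusted p under 0.05; 0 by DESeq2), and Mpo averaged 159 ± 54.4 CPM (SD, n = 3) in S and 72.8 ± 28.3 CPM (SD, n = 8) in plain IDs. In the same libraries Lyz1 had 0.33 and Lyz2 0.18, neither past the threshold.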

How the data were processed

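Whole spleen RNA was sequenced in 20 libraries. The authors deposited raw read counts per gene, whole numbers with no normalization, made with CASAVA, HISAT2 2.0.5 (GRCm38, mm10) and featureCounts 1.5.0 per the submitters' processing notes. How strand and reads with several matches were handled, and which annotation was used, is not given in the sources used here. Of 54532 genes, 18362 passed filterByExpr over the 4 groups of diet and ID form. Differences were tested with the edgeR 4.0.16 quasi-likelihood test in R 4.3.3 with TMM scaling (two-sided), Benjamini-Hochberg adjustment over all tested genes and a threshold of 0.05. SE is the absolute log2 difference over the square root of F. Comparisons within a diet or an ID form were fitted on their own libraries, and the fits were tested on simulated data. CPM is TMM-scaled and log2 CPM used a prior count of 2. Ratios were compared by exact permutation, and correlations of log2 CPM with group means removed by 100000 permutations within groups (scipy 1.17.1). Transcripts were aligned with biopython 1.88.

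Genes named were both lysozyme genes, the rest of their family, and, of each myeloid, peptidoglycan and transcription factor list, the 4 with the highest mean CPM and those with the largest and the smallest absolute difference in the comparison described, with the 5 genes most like each lysozyme gene, of which 1 is not reported here. F13a1 in the control comparison is named as the only marker called there. The erythroid, acinar, Paneth and lymphocyte lists are given by counts, medians and summed levels. The 2 lysozyme genes and all lists were chosen with earlier results of these data known. Alternatives were RLE, upper quartile and library total scaling, other filters, DESeq2 1.42.0, limma-voom (limma 3.58.1), an erythroid covariate, a joint fit, a replicate block, and leaving out each library. Correlations with list means, and their alternatives, were added after seeing the data.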

Additional observations from a re-analysis of the deposited data

Results flagged for a closer look

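Gluten-free 10 stood far from the rest of its group in Lyz2. Its level was 1990.65 CPM, while the other 3 gluten-free libraries with plain IDs had 1468 to 1499 CPM. The gap to its nearest neighbour was 0.940 of the group's range, above the critical value of 0.829 for 4 libraries. Of 9 groups of values examined this way, chance alone flags about 1 in 20. The same library had the highest summed level of secondary and tertiary granule genes (4174 CPM) and of mature neutrophil genes (3974 CPM). Its Lyz1 level, 25.0 CPM, was close to that of gluten-free 8 (24.6 CPM). Without it the Lyz2 difference between ID forms in gluten-free libraries was -0.57 (adjusted p = 0.0253, edgeR) and the interaction -0.76 (adjusted p = 0.0199, edgeR).

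The diet difference of Lyz2 was not the same in both ID forms, with an interaction of -0.875 on the log2 scale (SE 0.22, adjusted p = 0.00756, edgeR). The summed erythroid level of the gluten-free libraries with plain IDs, 53237 to 95681 CPM, was below that of the gluten-free libraries with S IDs, 100718 to 170946 CPM, and with the erythroid mean as a covariate the interaction was -0.48 (adjusted p = 0.164, edgeR).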

How the results depend on the processing

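Over 25 main results, 482 of 529 values under other settings kept their direction and their side of the threshold or stayed close to the main value. With an erythroid covariate the diet difference over both ID forms was 0.54 for Lyz1 and 0.32 for Lyz2, and in plain IDs 0.87 and 0.73. With it, Lyz1 changed sign between ID forms in gluten-free libraries (0.40) and in the interaction (0.31), and Lyz2 lost its call in both (-0.25 and -0.48). With it, called genes numbered 706 in plain IDs, 887 between control ID forms, 0 between gluten-free ID forms and 1831 in the interaction, and called myeloid markers 21, 2 and 0 in the first 3 of these. In the interaction the count of called markers stayed close to the main value with this covariate. With library totals alone Lyz2 in plain IDs was 1.34 and 51 markers were called between gluten-free ID forms. That scaling moved the median of all genes in plain IDs from 0.03 to 0.31, with 6522 genes higher and 2043 lower in place of 3216 and 4050, and upper quartile scaling moved it to 0.13, with 4392 higher and 3272 lower. Between gluten-free ID forms library totals gave 1628 higher and 5787 lower in place of 3570 and 2218 (upper quartile 2790 and 3283), and in the interaction 1294 and 2650 in place of 2825 and 1720 (upper quartile 1997 and 2260). Between control ID forms, DESeq2 called 910 genes, limma-voom 236 (0 markers) and the joint fit 581, and no expression filter gave 2 markers. DESeq2 called 4 genes in S IDs. The cause of these changes was not tested.

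Leaving out each library in turn, the log2 ratio between control ID forms ran from -0.28 (without control S6) to 0.27, and by medians it was -0.0389. In gluten-free libraries it ran from 0.32 to 0.50. The Lyz1 diet difference in S IDs ran from 0.40 to 1.13 (without control S6), Lyz1 between control ID forms from -0.16 (without control S6) to 0.57, genes called there from 0 (without control S1 or S2) to 949 (without control S6), and markers there from 0 to 9. Markers called between gluten-free ID forms ran from 21 (without gluten-free 10) to 41. The r of Lyz1 and Lyz2 ran from 0.33 to 0.57, and was 0.11 with the erythroid mean regressed out. The r of Lyz1 with the monocyte mean ran from -0.14 to 0.11 (0.36 with library totals), and that of Lyz2 with the azurophilic mean from -0.062 to 0.14. With the erythroid mean regressed out, the r of Lyz2 with the B and T cell mean was 0.33, and r was -0.000522 for Lyz1 with dendritic cell genes and 0.18 for Lyz2 with macrophage genes. For Lyz2 it was 0.14 with dendritic cell genes, 0.55 with mature neutrophil genes and 0.46 with secondary and tertiary granule genes.

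IDs 7, 8, S1 and S6 occur in both diets. The deviations of the same-numbered libraries correlated at -0.17, -0.20, 0.09 and 0.38. These values were not tested, so whether such libraries share more than a number cannot be told. With a replicate block over those 8 libraries the interaction was -0.47 for Lyz2 (adjusted p = 0.849, edgeR) and -0.84 for Lyz1, with 5 genes and 0 markers called, and the diet difference was 0.94 for Lyz1 and 0.54 for Lyz2. Fewer libraries enter that fit. Lyz1 rests on 90 to 614 counts a library.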
